A study of Homo sapiens with 7 samples.

Results

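The mRNA of 57 translation initiation and elongation factor genes was measured in 7 K562 lines. The genes were chosen by name, as those of the 10452 genes tested whose symbol begins with EIF1 to EIF6, EEF1 or EEF2, apart from the EIF2AK kinases, EIF4EBP1 and EEF1E1. The rule itself used no difference between lines, and the limit on low values was the only measure in it. Earlier results of these data were known when the genes were chosen. Of the 57, 55 code for proteins, EEF1A1P9 is a processed pseudogene of EEF1A1, and EIF3J-AS1 is a long noncoding RNA gene beside EIF3J on the other strand. EIF3CL and EIF5AL1 are near copies of EIF3C and EIF5A. A further 8 genes whose symbols follow the same rule stayed below 10 CPM (counts scaled to a common library total) in all but at most 1 library and were not tested.

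K562 is an established line of chronic myeloid leukemia driven by BCR::ABL1, the kinase that dasatinib inhibits. The DasR intermediates are K562 cells taken at successive steps of a long culture in rising concentrations of dasatinib. The 2 control lines were drug naive K562 and K562 kept in the DMSO vehicle, neither with dasatinib. The early stage group held the 10, 15 and 25 nM DasR intermediates, the late stage group the 50 and 200 nM DasR intermediates. All 7 lines share the BCR::ABL1 fusion of K562. By the study's account several intermediates were mixed populations of cells. The study set the 2 stages from the clustering of these same libraries, so a difference between stages is partly fixed by how the stages were drawn.

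Translation begins when the small ribosomal subunit, carrying eIF1, eIF1A, eIF3, eIF5 and the initiator tRNA bound to eIF2 and GTP, is recruited to the capped end of an mRNA by eIF4F and scans to a start codon. The guanine nucleotide exchange factor eIF2B recharges eIF2, and eIF5B joins the large subunit. During elongation eEF1A brings aminoacyl tRNAs, eEF2 moves the ribosome along the mRNA, and eIF5A helps at sequences where peptide bonds form slowly. In chronic myeloid leukemia cells, signals from BCR::ABL1 reach this machinery through the mTOR and MNK kinases, which act on eIF4E and its binding proteins, and through the kinases that phosphorylate eIF2.

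Each line was sequenced as 1 library. Total counts were 21007761 for drug naive K562, 24037893 for the DMSO line, 27808639, 27844799 and 20059656 at 10, 15 and 25 nM, and 20827519 and 21588772 at 50 and 200 nM. The 57 genes took between 3.29% and 3.54% of the counts of a library, with no separation of the 3 groups. EEF1A1 alone made up between 36.5% and 42.4% of this. Replicates are thus the different lines of a stage, whose spread also holds any effect of dose, and no line has a repeat library. The DasR intermediates are successive samples of the same dose escalation, so they are not independent replicates. Every comparison with a stage below rests on that single escalation. Between lines of a group, the chi-square of the counts divided by its degrees of freedom was 21.1 at the lowest and 70.1 at the highest. This sets different lines against counting noise alone, and how alike repeat libraries would be was not measured. In a bulk library, fewer cells with an mRNA and less of it per cell cannot be told apart.

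The libraries were first checked against the labelled cell type. All 12 genes of an erythroid marker list for K562 were detected, with HBG2 the most abundant, and the list summed to 4185 and 3799 CPM in the drug naive and DMSO lines, 12432, 14004 and 10883 CPM in the early stage intermediates, and 6989 and 4934 CPM in the late stage intermediates. Of the 12 genes, 10 exceeded the controls at an FDR of 0.05 in the early stage (22.6% of all genes), and 1 did so later (16.2%). The 7 lymphoid markers, led by CD3D, summed to 24.9 and 18.7 CPM in the drug naive and DMSO lines. They summed to 9.17, 8.83 and 13.9 CPM in the early stage and 26.9 and 34.1 CPM in the late stage. MS4A1 and CD2 were at or near 0, and CD3D was higher in the late than the early stage (log2 fold change 2.41, edgeR FDR = 0.0270). The 6 myeloid markers summed to between 27.8 and 109 CPM, led by LYZ, with MPO and ELANE at or near 0. The 8 stromal and epithelial markers summed to between 67.2 and 99.4 CPM, led by EPCAM, with LUM and CDH1 at or near 0. Erythroid marker mRNA was thus higher in the early stage libraries, and its part and that of CD3D in the factor values below were not tested.

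Translation factor mRNAs were higher for some factors and lower for others in the DasR intermediates. FDR here is the p-value of edgeR's quasi-likelihood test after Benjamini-Hochberg adjustment over all 10452 genes, and the study's threshold of 0.005 was used beside 0.05. In the early stage, 7 of the 57 genes (12.3%) were higher than the controls at an FDR of 0.005, against 7.92% of all genes tested, and 5 (8.77%) were lower, against 10.1%. At 0.05, 18 (31.6%) were higher against 22.6%, and 11 (19.3%) were lower against 24%. The shares of factor genes were of the same order as those of all genes. The log2 fold change was above 0 for 32 of the 57 genes (50.2% of all genes), with a median of 0.02 against 0.00307 over all genes. All 3 early stage lines lay above both controls for 26 factor genes (45.6%, against 35.4% of all genes) and below both for 16 (28.1%, against 35.2%).

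In the late stage, 4 of the 57 genes (7.02%) were higher at 0.005 against 3.42% of all genes, and 2 (3.51%) were lower against 4.56%. At 0.05, 16 (28.1%) were higher against 16.2%, and 10 (17.5%) were lower against 17.6%. The log2 fold change was above 0 for 29 of the 57 (49.7% of all genes), with a median of 0.06 against -0.00358. Both late stage lines lay above both controls for 26 factor genes (45.6%, against 33.4% of all genes) and below both for 20 (35.1%, against 35.2%). The early and late stage comparisons share both control lines, so their values stand side by side and are not independent. In all 5 DasR intermediates together, 22 of the 57 genes lay above both controls, against 24.4% of all genes. Below both lay 13 of the 57, against 25.1%. The 5 intermediates follow each other in the same escalation, so they are not independent readings.

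**Figure D1:**
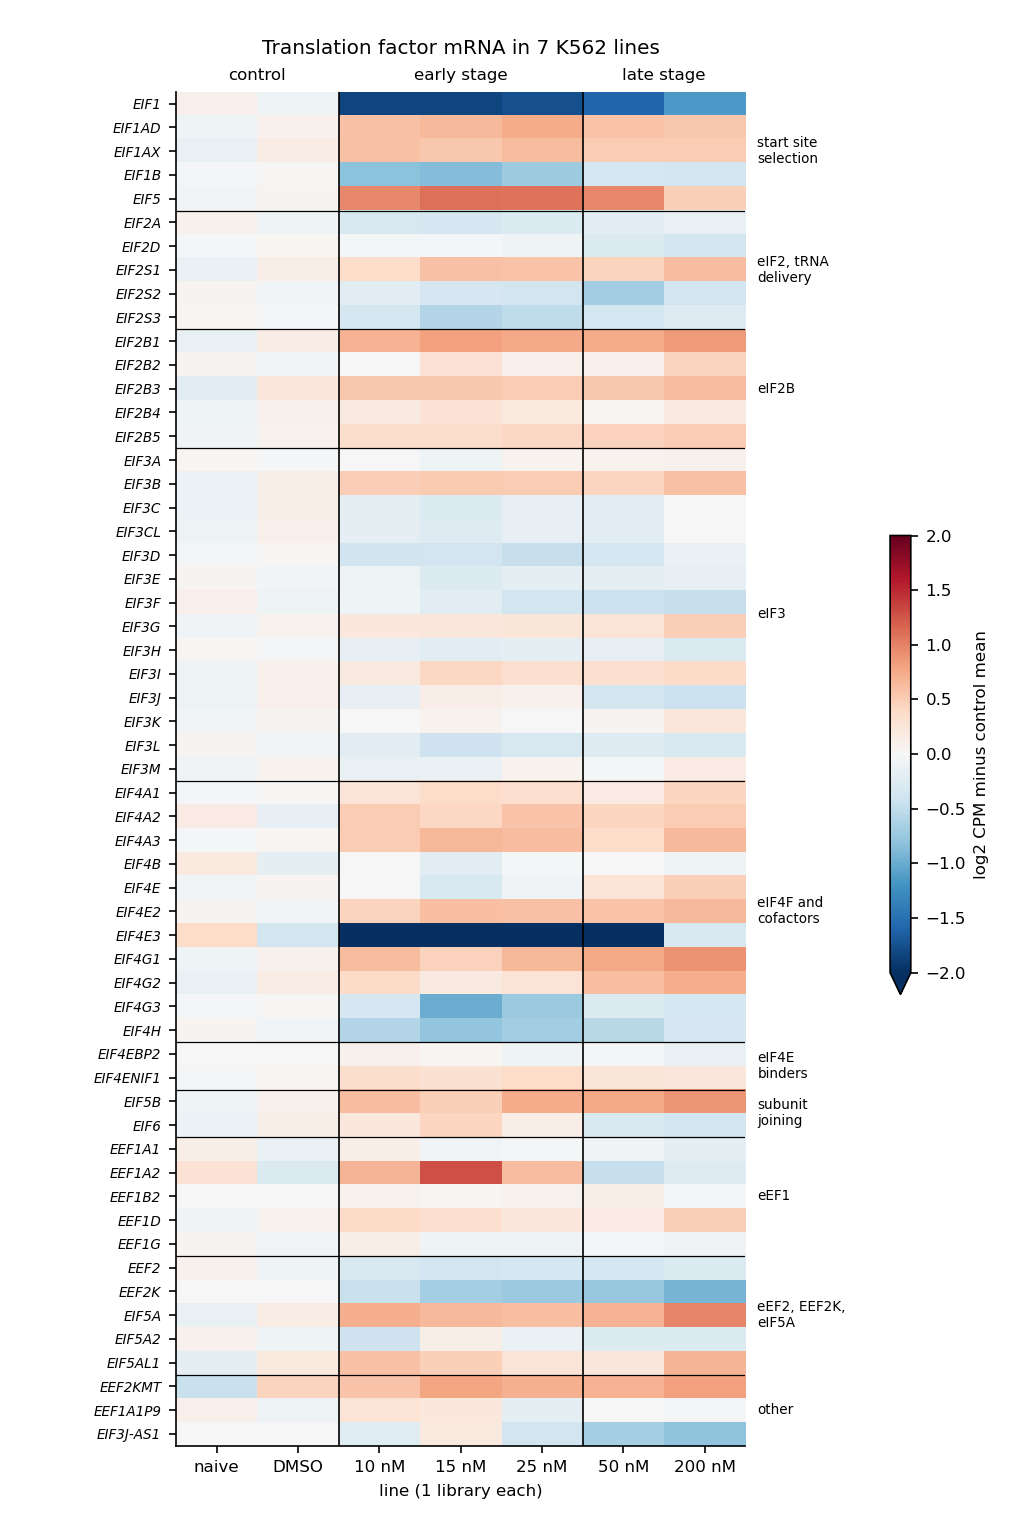
Heat map of the 57 genes (listed down the side, grouped by role) in the 7 lines (across), coloured by log2 CPM minus the mean of the 2 controls, from -2 in blue to 2 in red. EIF1 and EIF4E3 are the darkest blue, with the lowest values of EIF4E3 beyond the colour range, and EIF5, EIF2B1, EIF5A, EIF5B and EIF4G1 are red in all 5 DasR intermediates.

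The strict threshold left fewer calls once any 1 library was removed. At 0.005 the early stage calls fell from 7 higher and 5 lower to 0 and 1 without the drug naive line, 1 and 1 without the DMSO line, 2 and 5 without the 10 nM, 0 and 2 without either the 15 nM or the 25 nM, 6 and 4 without the 50 nM and 6 and 5 without the 200 nM intermediate. Over all genes, 1881 calls in both directions became 208, 529, 1111, 889, 535, 2054 and 2066 in the order of the lines above. The late stage calls fell from 4 higher and 2 lower to 0 and 0 without either control, 0 and 2 without the 10 nM, 2 and 1 without the 15 nM, 0 and 1 without the 25 nM or the 50 nM, and 1 and 1 without the 200 nM intermediate. Over all genes, 834 became 33, 110, 590, 596, 274, 263 and 281 in the same order. All 12 early and 6 late calls made at 0.005 kept an FDR under 0.05 in each of those fits, the highest being 0.0403 for EIF4E3 without the drug naive line. Of the calls at 0.05, 10 of 18 higher and 7 of 11 lower in the early stage, and 8 of 16 higher and 2 of 10 lower in the late stage, kept an FDR under 0.05 whichever library was left out. For all genes the shares kept were 46.5% and 51.8% in the early stage and 35% and 41.6% in the late stage. The factor genes that did not are named below with the library.

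**Figure D2:**
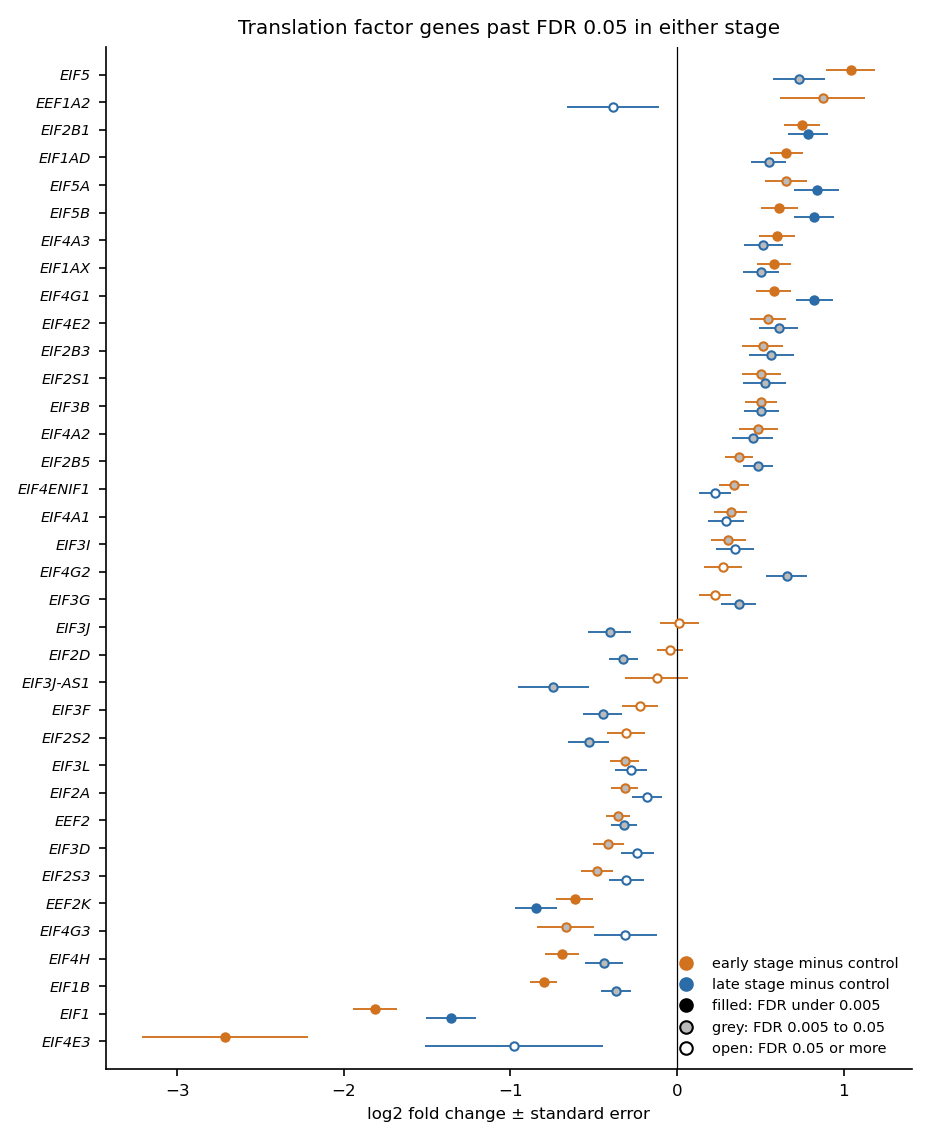
Log2 fold change with its standard error for each translation factor gene past an FDR of 0.05 in either stage, early stage in orange and late stage in blue, with filled points under 0.005, grey points from 0.005 to 0.05 and open points above. EIF5 has the highest early stage value, 1.04, and EIF4E3 and EIF1 the lowest, -2.71 and -1.81.

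EIF1, EIF1B, EIF1AX and EIF5, genes of start site selection, and EIF1AD, the gene of a relative of eIF1A, all changed in both stages at an FDR of 0.05, 3 upward and 2 downward. The shares of all genes at 0.05 were 22.6% upward and 24% downward early, and 16.2% and 17.6% late. EIF1 (chromosome 17, 39845137 to 39848920, plus strand, GRCh37) codes for the factor that holds the scanning ribosome open and rejects wrong start codons. Its mRNA was 955 and 869.8 CPM in the drug naive and DMSO lines, 257, 259 and 272 CPM in the 10, 15 and 25 nM DasR intermediates, and 307 and 419 CPM in the 50 and 200 nM DasR intermediates. Every DasR intermediate lay below the lower control, and the 200 nM intermediate was the highest of the 5. The early stage level was 0.285 of the control level (log2 fold change -1.81, SE 0.13, edgeR FDR = 0.000186) and the late stage level 0.391 of it (log2 fold change -1.36, SE 0.15, edgeR FDR = 0.00141). The early stage call at 0.005 held without any 1 library, whereas the late stage FDR was 0.0125 without the drug naive line and 0.00671 without the DMSO line. The late stage value lay above the early stage value by 0.46 on the log2 scale, which did not pass (edgeR FDR = 0.0635). Before normalization these were 20060 and 20908 counts in the controls, 7157, 7225 and 5448 counts in the early stage, and 6384 and 9036 counts in the late stage.

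EIF1B (chromosome 3, 40351198 to 40353915, plus strand), which codes for a close relative of eIF1, also fell. It was 117 and 127 CPM in the control lines, 69.1, 68.2 and 75.03 CPM in the early stage intermediates, and 96.7 and 95.2 CPM in the late stage intermediates. The 3 groups did not overlap, with the late stage between the other 2. The early stage was lower than the controls (log2 fold change -0.80, SE 0.08, edgeR FDR = 0.000583). The late stage was also lower (log2 fold change -0.37, SE 0.09, edgeR FDR = 0.0194), a call at 0.05 only, with an FDR of 0.0616 without the drug naive line, 0.0704 without the DMSO line and 0.0719 without the 200 nM intermediate. The late stage exceeded the early stage (log2 fold change 0.43, SE 0.08, edgeR FDR = 0.0226), with an FDR of 0.0659 without the 15 nM intermediate, 0.0504 without the 25 nM intermediate and 0.102 without the 200 nM intermediate.

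EIF5 and EIF1AX, genes of partners of eIF1 in scanning, moved the other way. EIF5 (chromosome 14, 103799881 to 103811362, plus strand) codes for the protein that makes eIF2 hydrolyse its GTP and competes with eIF1 for the scanning ribosome. Its mRNA was 187 and 209 CPM in the drug naive and DMSO lines, 385, 429 and 422 CPM in the 10, 15 and 25 nM DasR intermediates, and 386 and 279.8 CPM in the 50 and 200 nM DasR intermediates. All 5 intermediates were above both controls, and the 200 nM intermediate was the lowest of them. EIF5 rose in the early stage (log2 fold change 1.04, SE 0.15, edgeR FDR = 0.00184) and, at 0.05, in the late stage (log2 fold change 0.73, SE 0.16, edgeR FDR = 0.0125), where the FDR was 0.0763 without the drug naive line. The difference between the stages was -0.31 (edgeR FDR = 0.177).

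EIF1AX (chromosome X, 20142643 to 20159956, minus strand), the gene of eIF1A, which aids scanning together with eIF1, was 162 and 206 CPM in the control lines, 275, 270.1 and 287 CPM in the early stage intermediates, and 263 and 266 CPM in the late stage intermediates. The 5 intermediates lay close together and above both controls, which differed from each other by more than the intermediates did. The rise was 0.58 in the early stage (SE 0.10, edgeR FDR = 0.00402) and 0.50 in the late stage (SE 0.11, edgeR FDR = 0.0135), the latter FDR being 0.0591 without the drug naive line. EIF1AD (chromosome 11, 65764016 to 65769647, minus strand), which codes for an eIF1A domain protein of small subunit maturation, was 40.03 and 47.3 CPM in the control lines, 65.4, 69.6 and 73.5 CPM in the early stage intermediates, and 65.2 and 64.3 CPM in the late stage intermediates. It rose in the early stage (log2 fold change 0.66, SE 0.10, edgeR FDR = 0.00215) and, at 0.05, in the late stage (log2 fold change 0.55, SE 0.10, edgeR FDR = 0.00837).

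Set against each other per length, EIF1 and EIF5 were far closer in the intermediates than in the controls. The ratio of their CPM per kilobase of gene length was 23.4 for drug naive K562 and 19.1 for DMSO, 3.07, 2.77 and 2.95 at 10, 15 and 25 nM, and 3.64 and 6.86 at 50 and 200 nM. All 5 intermediates were below both controls. The ratio of EIF1 to EIF1B was 6.22 and 5.23 in the controls and between 2.42 and 3.35 in the 5 intermediates. Both ratios were chosen after the values had been seen and carry no test. Summed over the 5 genes, the group had 1461 and 1458 CPM in the controls and between 1052 and 1129 CPM in the intermediates.

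**Figure D3:**
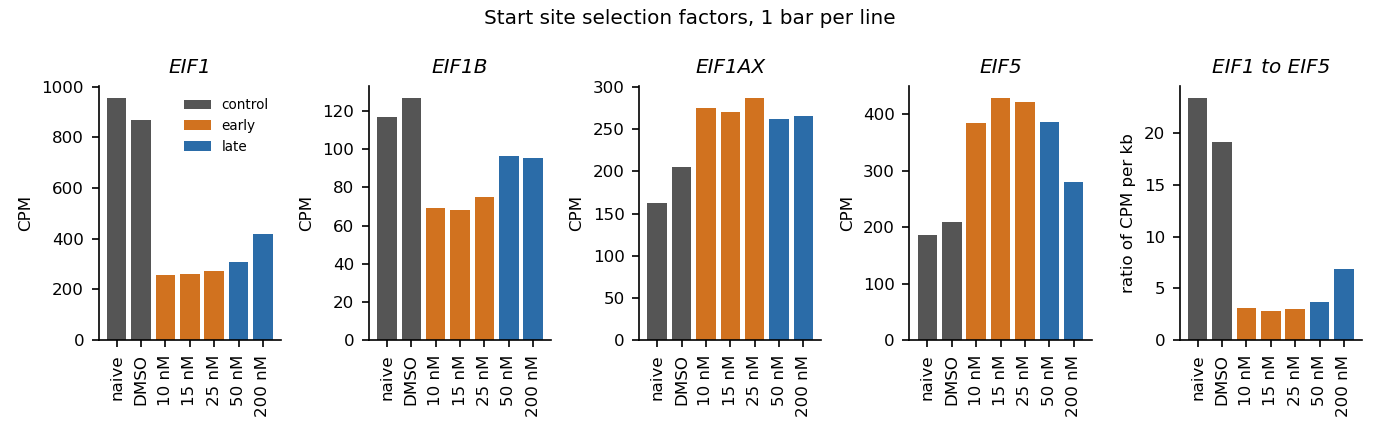
CPM of EIF1, EIF1B, EIF1AX and EIF5, and at the right the ratio of EIF1 to EIF5 in CPM per kilobase, with 1 bar for each line, grey for control, orange for early stage and blue for late stage. EIF1 and EIF1B bars are lower and EIF1AX and EIF5 bars higher in every DasR intermediate than in both controls.

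The upstream sequences of EIF1 and EIF1B are shown because these 2 relatives fell together. RefSeq promoters (GRCh38.p14, 250 bases before the annotated start) matched 46 of the 57 genes. They were searched on both strands for CACGTG, the E-box that MYC and related factors are known to bind and which reads the same on both strands, and for CCGGAAGT, a sequence known to be bound by ETS factors, whose letters cannot share a base with the E-box. The E-box was in the promoter of 11 of the 46 factor genes (23.9%), of 11.8% of the 8274 tested genes with a promoter in the table and of 7.73% of all 27305 genes in it. CCGGAAGT was in 7 of the 46 (15.2%), 9.45% of the tested genes and 4.13% of all genes. These are matches of letters only, and a gene with several promoters was counted if any of them held the sequence. Of the 11 genes with the E-box, 3 rose in the early stage at 0.05 (EIF2B3, EIF4A3 and EIF4G1), 3 fell (EIF1B, EIF4H and EEF2K), against 22.6% and 24% of all genes, and EIF3F, EIF3K, EIF4B, EIF4E and EIF5A2 did not pass. Of the 7 with CCGGAAGT, 3 rose (EIF3I, EIF4E2 and EIF5A) and 1 fell (EIF2A), while EEF1B2, EIF5A2 and EIF6 did not pass. E-box bases are in capitals, and the EIF1 window holds none.
EIF1 (chr17:41688635-41688884, plus strand): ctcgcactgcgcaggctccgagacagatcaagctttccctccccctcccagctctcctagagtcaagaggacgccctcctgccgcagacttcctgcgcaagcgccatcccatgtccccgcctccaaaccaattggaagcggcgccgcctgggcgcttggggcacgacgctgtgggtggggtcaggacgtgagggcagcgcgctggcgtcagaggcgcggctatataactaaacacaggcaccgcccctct
EIF1B (chr3:40309457-40309706, plus strand): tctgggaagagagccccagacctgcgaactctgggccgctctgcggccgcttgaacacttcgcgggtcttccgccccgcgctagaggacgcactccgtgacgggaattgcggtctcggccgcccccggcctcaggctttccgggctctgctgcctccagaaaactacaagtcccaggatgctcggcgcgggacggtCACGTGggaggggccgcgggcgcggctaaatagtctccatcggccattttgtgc

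The genes of eIF2, which carries the initiator tRNA, did not move together. EIF2S1 codes for the alpha subunit, the one that stress kinases phosphorylate, and was 88.7 and 111 CPM in the control lines, 129, 151 and 149 CPM in the early stage intermediates, and 136 and 155 CPM in the late stage intermediates. All intermediates exceeded both controls. EIF2S1 rose at 0.05 in both stages (0.51, FDR = 0.0121 and 0.53, FDR = 0.0199, edgeR), with an early stage FDR of 0.0814 without the drug naive line and a late stage FDR of 0.105 without the drug naive line and 0.0787 without the 200 nM intermediate. EIF2S3, the gene of the gamma subunit that binds GTP and the tRNA, was 959.7 and 955 CPM in the control lines, 755, 645 and 677 CPM in the early stage intermediates, and 754 and 821 CPM in the late stage intermediates. It lay below both controls in all 5 intermediates and fell in the early stage (log2 fold change -0.48, SE 0.10, edgeR FDR = 0.00625), while the late stage value was -0.30 (edgeR FDR = 0.0603). EIF2S2, the beta subunit gene, was lower at 0.05 in the late stage (log2 fold change -0.53, SE 0.12, edgeR FDR = 0.0171, and FDR = 0.0870 without the drug naive line and 0.0517 without the 50 nM intermediate), with an early stage value of -0.31 (edgeR FDR = 0.0590). The ratio of EIF2S3 to EIF2S1 in CPM per kilobase was 13.001 and 10.4 in the controls and between 5.12 and 7.04 in the 5 intermediates, again chosen after the values were seen.

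Of the 2 genes for alternative carriers of initiator tRNA, EIF2A was 204 and 191 CPM in the control lines, 158, 159 and 164 CPM in the early stage intermediates, and 172 and 182 CPM in the late stage intermediates. It fell at 0.05 in the early stage (-0.32, FDR = 0.0180, edgeR), with an FDR of 0.110 without the drug naive line, 0.0515 without the 15 nM intermediate and 0.0523 without the 25 nM intermediate. EIF2D, also known for recycling of small subunits, was 98.2 and 108 CPM in the control lines, 102, 103 and 98.4 CPM in the early stage intermediates, and 85.8 and 81.2 CPM in the late stage intermediates. Its late stage intermediates were below all other lines, a fall at 0.05 (-0.32, FDR = 0.0263, edgeR) with an FDR of 0.0679 without the drug naive line, 0.0940 without the DMSO line, 0.0601 without the 25 nM intermediate and 0.104 without the 200 nM intermediate.

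The 5 subunit genes of eIF2B, the factor that reloads eIF2 with GTP, had fold changes above 0 in both stages, and 3 of them rose in each at 0.05. Over all genes, 50.2% (early) and 49.7% (late) had a fold change above 0, and 22.6% and 16.2% were higher at 0.05. EIF2B1 (chromosome 12, 124104953 to 124118313, minus strand), the gene of the regulatory alpha subunit, was 57.2 and 72.9 CPM in the drug naive and DMSO lines, 105, 115 and 110.4 CPM in the 10, 15 and 25 nM DasR intermediates, and 108 and 119 CPM in the 50 and 200 nM DasR intermediates. All 5 intermediates were above the higher control. EIF2B1 rose at 0.005 in the early stage, to 1.68 times the control level (log2 fold change 0.75, SE 0.11, edgeR FDR = 0.00212), and in the late stage, to 1.72 times (log2 fold change 0.79, SE 0.12, edgeR FDR = 0.00382).

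EIF2B3, the gamma subunit gene, was 57.3 and 79.2 CPM in the control lines, 97.9, 99.8 and 96.9 CPM in the early stage intermediates, and 98.8 and 106 CPM in the late stage intermediates. The intermediates were tightly grouped, whereas the drug naive line lay well below the DMSO line. The fold changes were 0.51, FDR = 0.0132 and 0.57, FDR = 0.0180 (edgeR), with an early stage FDR of 0.0544 without the drug naive line and a late stage FDR of 0.0594 without the drug naive line and 0.0660 without the 200 nM intermediate. EIF2B5 codes for the catalytic epsilon subunit and was 68.2 and 78.5 CPM in the control lines, 93.8, 94.9 and 99.1 CPM in the early stage intermediates, and 102 and 106 CPM in the late stage intermediates. It rose by 0.37 in the early stage (edgeR FDR = 0.00976, and FDR = 0.0655 without the drug naive line) and by 0.48 in the late stage (edgeR FDR = 0.00802). EIF2B2 and EIF2B4, the beta and delta subunit genes, did not pass, with 0.13, FDR = 0.481 and 0.22, FDR = 0.104 in the early stage (edgeR). Summed over the 5 subunits, eIF2B mRNA was 248 and 302 CPM in the controls and between 371 and 416 CPM in the intermediates.

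eIF3 is the large scaffold that links the small subunit to eIF4F. Of the 14 genes of eIF3, 2 rose and 2 fell in each stage at 0.05, and none passed 0.005, beside shares at 0.05 of 22.6% upward and 24% downward (early) and 16.2% and 17.6% (late) over all genes. Their sum was 4353 and 4672 CPM in the controls and ranged from 4382 to 4697 CPM in the intermediates. EIF3B, a core subunit gene, was 324 and 394 CPM in the control lines, 507, 522 and 512 CPM in the early stage intermediates, and 487 and 548 CPM in the late stage intermediates. It exceeded both controls in all 5 intermediates and rose in the early stage (log2 fold change 0.50, SE 0.10, edgeR FDR = 0.00584) and the late stage (log2 fold change 0.51, SE 0.11, edgeR FDR = 0.0114, and FDR = 0.0620 without the drug naive line). EIF3D, the gene of the subunit known for a cap-binding activity of its own, was 263 and 285 CPM in the control lines, 208, 214 and 202 CPM in the early stage intermediates, and 216 and 256 CPM in the late stage intermediates. It fell at 0.05 in the early stage (log2 fold change -0.41, SE 0.09, edgeR FDR = 0.00926), with a late stage value of -0.24 (edgeR FDR = 0.105).

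Other eIF3 genes passed 0.05 in 1 stage and were sensitive to single libraries. EIF3I rose in the early stage (0.31, FDR = 0.0452, edgeR, and FDR = 0.232 without the drug naive line, 0.125 without the 15 nM intermediate, 0.119 without the 25 nM intermediate, 0.0507 without the 50 nM intermediate and 0.0514 without the 200 nM intermediate), and EIF3G in the late stage (0.37, FDR = 0.0310, edgeR, and FDR = 0.146 without the drug naive line, 0.0621 without the 25 nM intermediate and 0.122 without the 200 nM intermediate). EIF3L fell in the early stage (-0.31, FDR = 0.0233, edgeR, and FDR = 0.123 without the drug naive line, 0.0715 without the 15 nM intermediate and 0.0772 without the 25 nM intermediate, with 43.0% of its 75-base stretches also in transcripts annotated to other genes), and EIF3F in the late stage (-0.45, FDR = 0.0250, edgeR, and FDR = 0.131 without the drug naive line, 0.0645 without the 50 nM intermediate and 0.0818 without the 200 nM intermediate). EIF3J, the gene of a loosely bound subunit, was 193 and 232 CPM in the control lines, 189, 235 and 226 CPM in the early stage intermediates, and 165 and 160.1 CPM in the late stage intermediates. Its late stage fall (-0.40, FDR = 0.0451, edgeR) had an FDR of 0.0676 without the drug naive line, 0.184 without the DMSO line, 0.0772 without the 25 nM intermediate, 0.0869 without the 50 nM intermediate and 0.138 without the 200 nM intermediate. EIF3J-AS1 (chromosome 15, 44819455 to 44829244, minus strand) ends before the start of EIF3J (chromosome 15, 44829323 to 44855227, plus strand) on GRCh37 and does not overlap it. This noncoding RNA fell late (-0.74, FDR = 0.0324, edgeR, and FDR = 0.111 without the drug naive line, 0.0974 without the DMSO line, 0.0652 without the 50 nM intermediate and 0.113 without the 200 nM intermediate). EIF3A, EIF3C, EIF3E, EIF3H, EIF3K and EIF3M did not pass in either stage, with log2 fold changes between -0.22 and 0.15, and neither did EIF3CL, which shares 95.8% of its 75-base stretches with EIF3C so that their counts are uncertain.

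Among the 11 genes of eIF4F and its helicase cofactors, 5 rose and 3 fell in the early stage at 0.05 (22.6% and 24% of all genes), and 5 rose and 1 fell in the late stage (16.2% and 17.6%). EIF4G1 (chromosome 3, 184032283 to 184053146, plus strand) codes for the scaffold that joins the cap-binding protein, the helicase and eIF3. Its mRNA was 425 and 493 CPM in the drug naive and DMSO lines, 709.9, 638 and 730.1 CPM in the 10, 15 and 25 nM DasR intermediates, and 778 and 872 CPM in the 50 and 200 nM DasR intermediates. All 5 intermediates lay above both controls, and both late stage values were above all early stage values. EIF4G1 rose at 0.005 in the early stage (log2 fold change 0.58, SE 0.10, edgeR FDR = 0.00420) and the late stage (log2 fold change 0.82, SE 0.11, edgeR FDR = 0.00266), and the stages differed by 0.25 (edgeR FDR = 0.140).

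EIF4G2 and EIF4G3 are the other scaffold genes. EIF4G2, which codes for a scaffold without the eIF4E site, was 629 and 801 CPM in the control lines, 928, 817 and 872 CPM in the early stage intermediates, and 1089.8 and 1197 CPM in the late stage intermediates. All 5 intermediates were above both controls. It rose at 0.05 in the late stage (log2 fold change 0.66, SE 0.12, edgeR FDR = 0.00805), with an early stage value of 0.28 (edgeR FDR = 0.0825). EIF4G3 was 118 and 128 CPM in the control lines, 97.7, 62.96 and 74.2 CPM in the early stage intermediates, and 103 and 98.7 CPM in the late stage intermediates. It fell at 0.05 in the early stage (-0.67, FDR = 0.0172, edgeR), with an FDR of 0.0723 without the drug naive line, 0.0781 without the DMSO line and 0.0568 without the 25 nM intermediate, and its late stage value was -0.31 (edgeR FDR = 0.246). In CPM per kilobase, the ratio of EIF4G1 to EIF4G3 was 3.59 and 3.84 in the controls and between 7.25 and 10.1 in the 5 intermediates, a ratio chosen after the values were seen.

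EIF4E, the gene of the cap-binding protein itself, was 118 and 133 CPM in the drug naive and DMSO lines, 127, 103 and 121 CPM in the 10, 15 and 25 nM DasR intermediates, and 153 and 177 CPM in the 50 and 200 nM DasR intermediates. The early stage overlapped the controls, and both late stage intermediates lay above all other lines. Neither stage passed against the controls (-0.11, FDR = 0.463 and 0.38, FDR = 0.0594, edgeR), whereas the late stage exceeded the early stage at 0.05 (log2 fold change 0.49, SE 0.12, edgeR FDR = 0.0390). That call had an FDR of 0.0643 without the drug naive line, 0.0644 without the DMSO line, 0.0902 without the 15 nM intermediate, 0.0944 without the 25 nM intermediate and 0.209 without the 200 nM intermediate. The ratio of EIF4G1 to EIF4E in CPM per kilobase, chosen after the values were seen, was 2.93 and 3.03 in the controls, 4.56, 5.02 and 4.91 at 10, 15 and 25 nM, and 4.15 and 4.002 at 50 and 200 nM.

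The other cap-binding genes had mean control levels of 19.9 (EIF4E2) and 2.25 (EIF4E3) CPM per kilobase, against 24.9 for EIF4E. EIF4E2, whose protein binds caps in repressive complexes, was 20.5 and 19.7 CPM in the control lines, 27.5, 30.9 and 30.7 CPM in the early stage intermediates, and 29.96 and 32.4 CPM in the late stage intermediates, with all intermediates above both controls. It rose at 0.05 in both stages (0.55, FDR = 0.00651 and 0.61, FDR = 0.00896, edgeR). EIF4E3 (chromosome 3, 71724565 to 71803924, minus strand) had 383 and 272 counts in the controls, 55, 72 and 46 counts in the early stage, and 71 and 257 counts in the late stage. In CPM this was 18.2, 11.3, 1.98, 2.59, 2.29, 3.41 and 11.9 in the same order. The 10 to 50 nM intermediates were far below the controls, and the 200 nM intermediate lay between the 2 controls. EIF4E3 reached the limit of 10 CPM only in the controls and the 200 nM intermediate, so it was tested only through lines where it was high. The early stage level was 0.153 of the control level (log2 fold change -2.71, SE 0.50, edgeR FDR = 0.00477), and this call is not independent of that limit. The late stage, with 1 low and 1 control-like line, gave -0.98 (SE 0.53, edgeR FDR = 0.193).

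All 3 RNA helicase genes rose in the early stage at 0.05, against 22.6% of all genes. EIF4A1, the main helicase of eIF4F, was 656 and 704 CPM in the control lines, 819.9, 891 and 864 CPM in the early stage intermediates, and 764 and 931 CPM in the late stage intermediates. All 5 intermediates were above both controls, with an early stage call at 0.05 (0.32, FDR = 0.0321, edgeR) whose FDR was 0.135 without the drug naive line, 0.0901 without the DMSO line, 0.0806 without the 15 nM intermediate and 0.0854 without the 25 nM intermediate, and a late stage value of 0.30, FDR = 0.0690. All of the 75-base stretches of EIF4A1 also occur in transcripts annotated to other genes, so its counts are uncertain. EIF4A2, the second helicase gene, was 296 and 246 CPM in the control lines, 388, 365 and 403 CPM in the early stage intermediates, and 365 and 391 CPM in the late stage intermediates, and rose in both stages at 0.05 (0.49, FDR = 0.0120, with 0.0578 without the DMSO line, and 0.45, FDR = 0.0285, with 0.104 without the DMSO line, 0.0543 without the 25 nM intermediate, 0.0554 without the 50 nM intermediate and 0.0934 without the 200 nM intermediate, edgeR). EIF4A3 (chromosome 17, 78108168 to 78120950, minus strand), which codes for the helicase of the exon junction complex, was 61.1 and 66.5 CPM in the control lines, 91.4, 102 and 99.4 CPM in the early stage intermediates, and 82.9 and 102 CPM in the late stage intermediates. It rose at 0.005 in the early stage (log2 fold change 0.60, SE 0.11, edgeR FDR = 0.00445) and at 0.05 in the late stage (0.52, FDR = 0.0153, edgeR), the latter with an FDR of 0.0820 without the drug naive line and 0.0602 without the 200 nM intermediate.

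EIF4B and EIF4H are the genes of helicase cofactors. EIF4B was between 1249 and 1611 CPM over the 7 lines, with overlapping groups (-0.09, FDR = 0.614 and -0.06, FDR = 0.790, edgeR). EIF4H (chromosome 7, 73588561 to 73611452, plus strand) was 579.6 and 561 CPM in the drug naive and DMSO lines, 379.8, 337 and 355 CPM in the 10, 15 and 25 nM DasR intermediates, and 393 and 462 CPM in the 50 and 200 nM DasR intermediates. Every intermediate was below both controls, and the 200 nM intermediate was the highest of them. EIF4H fell at 0.005 in the early stage (log2 fold change -0.69, SE 0.10, edgeR FDR = 0.00207) and at 0.05 in the late stage (log2 fold change -0.44, SE 0.11, edgeR FDR = 0.0222), where the FDR was 0.107 without the drug naive line and 0.0828 without the 50 nM intermediate. Of the genes for proteins that hold eIF4E, EIF4ENIF1 was 28.2 and 30.9 CPM in the control lines, 38.1, 36.9 and 38.6 CPM in the early stage intermediates, and 35.1 and 35.2 CPM in the late stage intermediates, a rise at 0.05 in the early stage (0.34, FDR = 0.0180, edgeR) with an FDR of 0.0929 without the drug naive line and 0.0693 without the 25 nM intermediate. EIF4EBP2 did not pass in either stage (0.01, FDR = 0.902 and -0.09, FDR = 0.487, edgeR).

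Promoters of EIF4G1, EIF4E and EIF4H are shown because these eIF4F genes carry the E-box (capitals) and had different values: EIF4G1 rose, EIF4H fell, and EIF4E did not pass against the controls. They are again RefSeq sequences of GRCh38.p14. EIF4G1 has 3 such promoters, and the E-box is only in that shown.
EIF4G1 (chr3:184314356-184314605, plus strand): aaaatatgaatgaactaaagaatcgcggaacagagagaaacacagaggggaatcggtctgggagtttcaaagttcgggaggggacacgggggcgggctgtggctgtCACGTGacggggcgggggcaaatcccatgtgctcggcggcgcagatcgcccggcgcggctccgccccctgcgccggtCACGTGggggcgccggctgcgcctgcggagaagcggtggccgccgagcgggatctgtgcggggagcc
EIF4E (chr4:98929134-98929383, minus strand): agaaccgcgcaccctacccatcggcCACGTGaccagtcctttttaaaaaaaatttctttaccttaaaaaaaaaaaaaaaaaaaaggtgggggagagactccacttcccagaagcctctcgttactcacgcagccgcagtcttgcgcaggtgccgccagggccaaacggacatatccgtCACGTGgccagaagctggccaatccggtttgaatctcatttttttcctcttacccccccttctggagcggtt
EIF4H (chr7:74174106-74174355, plus strand): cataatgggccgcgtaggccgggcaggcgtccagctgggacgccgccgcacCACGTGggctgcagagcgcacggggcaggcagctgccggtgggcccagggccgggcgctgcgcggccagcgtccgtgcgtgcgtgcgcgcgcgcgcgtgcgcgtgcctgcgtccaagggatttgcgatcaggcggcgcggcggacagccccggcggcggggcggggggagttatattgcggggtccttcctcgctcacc

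EIF5B (chromosome 2, 99953834 to 100017789, plus strand), the GTPase that joins the large subunit, was 223 and 260.3 CPM in the drug naive and DMSO lines, 370.5, 341 and 408 CPM in the 10, 15 and 25 nM DasR intermediates, and 410.4 and 456 CPM in the 50 and 200 nM DasR intermediates. All intermediates were above both controls, and both late stage values were above all early stage values. It rose at 0.005 in the early stage (log2 fold change 0.61, SE 0.11, edgeR FDR = 0.00434) and in the late stage (log2 fold change 0.82, SE 0.12, edgeR FDR = 0.00344). EIF6, which keeps the large subunit from joining too soon, was 71.97 and 88.3 CPM in the drug naive and DMSO lines, 92.3, 109 and 88.7 CPM in the 10, 15 and 25 nM DasR intermediates, and 65.01 and 63.1 CPM in the 50 and 200 nM DasR intermediates. The early stage lay above both controls and the late stage below both. Neither difference from the controls passed (0.26, FDR = 0.113 and -0.34, FDR = 0.0778, edgeR), but the late stage was lower than the early stage at 0.05 (log2 fold change -0.60, SE 0.12, edgeR FDR = 0.0252), with an FDR of 0.0597 without the 15 nM intermediate, 0.0504 without the 25 nM intermediate and 0.140 without the 200 nM intermediate.

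Elongation factor 1 was the most abundant of the machinery, and of its 5 genes only EEF1A2 passed 0.05 in either stage. Over all genes, 22.6% were higher and 24% lower at 0.05 in the early stage, and 16.2% and 17.6% in the late stage. EEF1A1, which delivers aminoacyl tRNAs, was 14678 and 12818 CPM in the drug naive and DMSO lines, 14960.3, 13488 and 13692 CPM in the 10, 15 and 25 nM DasR intermediates, and 13206 and 12256 CPM in the 50 and 200 nM DasR intermediates. Both stages overlapped the controls, and both late stage lines were below all early stage lines, with 0.01 in the early stage (SE 0.09, edgeR FDR = 0.916) and -0.13 in the late stage (SE 0.10, edgeR FDR = 0.332). The exchange factor genes EEF1B2, EEF1D and EEF1G did not pass in either stage, with values between -0.04 and 0.32. EEF1G shares 97.4% of its 75-base stretches with transcripts annotated to other genes, and EEF1B2 44.3%. EIF4B, EIF2S2, EIF4E, EEF1A1, EIF6, EEF2KMT and EIF2S3 shared between 12.4% and 22.6% of theirs. Summed over the 5 genes of eEF1, mRNA was 17406 and 15500.0 CPM for the controls, 17961, 16218 and 16358 CPM at 10, 15 and 25 nM, and 15949 and 14983 CPM at 50 and 200 nM.

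EEF1A2, the form known from muscle and neurons, was 39.5 and 27.4 CPM in the drug naive and DMSO lines, 53.1, 82.1 and 51.1 CPM in the 10, 15 and 25 nM DasR intermediates, and 24.1 and 28.1 CPM in the 50 and 200 nM DasR intermediates. The 15 nM intermediate stood highest, all early stage lines exceeded both controls, and the late stage overlapped the controls. The early stage rose at 0.05 (log2 fold change 0.87, SE 0.25, edgeR FDR = 0.0264), with an FDR of 0.155 without the DMSO line, and the late stage value was -0.38 (edgeR FDR = 0.313). The late stage was lower than the early stage (log2 fold change -1.26, SE 0.26, edgeR FDR = 0.0270), with an FDR of 0.0643 without the 50 nM intermediate and 0.123 without the 200 nM intermediate.

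EEF2 and its kinase gene EEF2K fell in both stages, and EIF5A rose. EEF2 (chromosome 19, 3976054 to 3985461, minus strand), which codes for the translocase, was 4492 and 4184 CPM in the control lines, 3495, 3375 and 3421 CPM in the early stage intermediates, and 3416 and 3658 CPM in the late stage intermediates. All intermediates were below both controls. EEF2 fell at 0.05 in the early stage (log2 fold change -0.36, SE 0.07, edgeR FDR = 0.00700), with an FDR of 0.0537 without the drug naive line, and in the late stage (log2 fold change -0.32, SE 0.08, edgeR FDR = 0.0218), with 0.114 without the drug naive line, 0.0991 without the 50 nM intermediate and 0.0625 without the 200 nM intermediate. EEF2K (chromosome 16, 22217599 to 22300059, plus strand), the gene of the kinase that inhibits eEF2, was 167 and 175 CPM in the drug naive and DMSO lines, 127, 109 and 103 CPM in the 10, 15 and 25 nM DasR intermediates, and 102 and 91.4 CPM in the 50 and 200 nM DasR intermediates. The 3 groups did not overlap, and the 200 nM intermediate was the lowest. EEF2K fell at 0.005 in both stages (log2 fold change -0.62, SE 0.11, edgeR FDR = 0.00465, and log2 fold change -0.85, SE 0.13, edgeR FDR = 0.00368), and the stages differed by -0.23 (edgeR FDR = 0.206). Its promoter (RefSeq, GRCh38.p14) is shown as that of the other gene that fell at 0.005 and holds the E-box, in capitals.
EEF2K (chr16:22206028-22206277, plus strand): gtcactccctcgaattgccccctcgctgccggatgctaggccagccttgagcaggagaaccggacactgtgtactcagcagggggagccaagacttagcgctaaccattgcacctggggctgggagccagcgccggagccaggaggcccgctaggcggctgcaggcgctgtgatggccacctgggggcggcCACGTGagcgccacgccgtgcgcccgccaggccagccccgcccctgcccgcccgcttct

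EIF5A (chromosome 17, 7210318 to 7215782, plus strand) was 178 and 227 CPM in the drug naive and DMSO lines, 335, 320.1 and 308 CPM in the 10, 15 and 25 nM DasR intermediates, and 329.7 and 405 CPM in the 50 and 200 nM DasR intermediates. All 5 intermediates were above both controls, and the 200 nM intermediate was the highest. EIF5A rose at 0.05 in the early stage (log2 fold change 0.65, SE 0.12, edgeR FDR = 0.00555) and at 0.005 in the late stage (log2 fold change 0.84, SE 0.13, edgeR FDR = 0.00483). It shares 19.0% of its 75-base stretches with EIF5AL1, whose own counts gave 0.44, FDR = 0.102 and 0.46, FDR = 0.131 (edgeR). EIF5A2, the second eIF5A gene, did not pass (-0.13, FDR = 0.548 and -0.27, FDR = 0.273, edgeR). EEF2KMT, whose protein methylates eEF2, was 4.71 CPM in the drug naive line, 9.19 CPM in the DMSO line and between 9.89 and 11.997 CPM in the intermediates, and did not pass (0.63, FDR = 0.0978 and 0.69, FDR = 0.110, edgeR). The pseudogene EEF1A1P9 did not pass either (0.11, FDR = 0.580 and -0.01, FDR = 0.966, edgeR).

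Compared per length, control levels of the 57 genes spanned more than 3 orders of magnitude. In mean CPM per kilobase of the 2 controls, EEF1A1 had 3915, followed by EEF1G with 1422, EEF2 with 1374, EIF1 with 688 and EIF3E with 417, and EIF4E3 was lowest with 2.25. EEF1G and EEF2 were neighbours whose control values overlapped. Subunits of 1 complex were not equal. The 14 eIF3 genes ranged from 83.0 for EIF3J to 417 for EIF3E and the 5 eIF2B genes from 15.4 for EIF2B2 to 34.8 for EIF2B1, in CPM per kilobase. In the eIF2 group EIF2S1 had the lowest control level, 23.96, and EIF2S3 the highest, 276. EIF1 was the gene of the 5 most abundant in the controls whose level moved furthest, to between 194 and 316 CPM per kilobase in the intermediates.

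**Figure D4:**
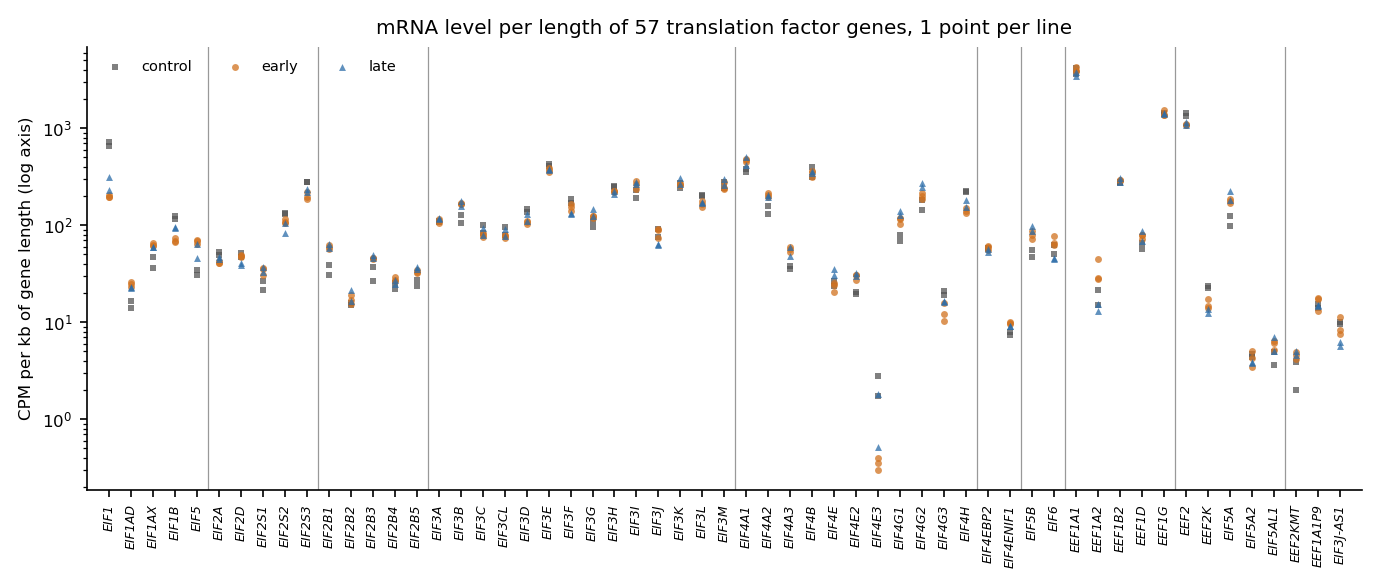
CPM per kilobase of gene length on a log axis for the 57 genes, grouped by role, with 1 point for each line (grey squares control, orange circles early stage, blue triangles late stage). EEF1A1 is highest and EIF4E3 lowest, and the points of EIF1 and EIF4E3 spread most between groups.

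The difference between the late and early stage was then tested directly. None of the 57 genes passed 0.005 by edgeR's quasi-likelihood test, where 0% of all genes did, while 12 (21.1%) had an unadjusted p under 0.05, against 33% of all genes. DESeq2 called 3 higher (5.26%, against 5.41%) and 2 lower (3.51%, against 5.45%) at 0.005. At 0.05, EIF1B and EIF4E were higher in the late stage (3.51% of the 57, against 6.6% of all genes) and EEF1A2 and EIF6 lower (3.51%, against 6.1%). The log2 difference was above 0 for 34 of the 57 genes (49.3% of all genes). Both late stage lines lay above all early stage lines for 12 factor genes (21.1%, against 26.4% of all genes) and below them for 12 (21.1%, against 26.9%). Each of the 4 calls passed 0.05 on leaving out some of the 7 libraries and not others, as given above. No other factor gene passed 0.05 between the stages by edgeR, including those past 0.05 in 1 stage alone, whereas DESeq2 called 5 higher and 5 lower at 0.05 (8.77% each, against 10.5% of all genes in each direction).

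Regulators and partners of the factors were read from a list of 45 other genes, of which 43 were tested. In the early stage 8 rose (18.6%, against 22.6% of all genes) and 9 fell (20.9%, against 24%) at 0.05, 1 and 5 of them at 0.005, with a median log2 fold change of 0.01. In the late stage 7 rose and 7 fell at 0.05 (16.3% each, against 16.2% and 17.6%), 0 and 1 of them at 0.005, with a median of 0.10. These shares were near or below those of all genes. DPH2, an enzyme of diphthamide synthesis, the modification that eEF2 carries, was 26.2 and 38.9 CPM in the control lines, 68.97, 89.5 and 87.6 CPM in the early stage intermediates, and 66.3 and 71.5 CPM in the late stage intermediates, and rose (log2 fold change 1.32, SE 0.18, edgeR FDR = 0.00164, and 1.07, FDR = 0.00692 in the late stage). The other diphthamide genes of the list did not all follow. DNAJC24, also of this synthesis, did not pass (0.24, FDR = 0.115 early and 0.15, FDR = 0.353 late, edgeR). DPH1 had 0.80, FDR = 0.00635 and 1.04, FDR = 0.00528, DPH3 0.38, FDR = 0.0557 and 0.50, FDR = 0.0383, DPH5 -0.28, FDR = 0.0375 and -0.27, FDR = 0.0744, DPH6 -0.35, FDR = 0.225 and -0.77, FDR = 0.0458, and DPH7 -0.09, FDR = 0.529 and 0.06, FDR = 0.743 in the early and late stage (edgeR). The late stage FDR of DPH3 was 0.166 without the drug naive line, 0.0517 without the 15 nM intermediate, 0.0658 without the 25 nM intermediate, 0.103 without the 50 nM intermediate and 0.0842 without the 200 nM intermediate, the early stage FDR of DPH5 0.138 without the drug naive line, 0.104 without the DMSO line, 0.104 without the 15 nM intermediate and 0.105 without the 25 nM intermediate, and the late stage FDR of DPH6 0.114 without the drug naive line, 0.156 without the DMSO line, 0.0632 without the 10 nM intermediate, 0.0520 without the 15 nM intermediate, 0.0759 without the 25 nM intermediate and 0.142 without the 50 nM intermediate. DOHH, which completes the hypusine of eIF5A, had 0.86, FDR = 0.00565 and 0.69, FDR = 0.0234 (edgeR), the late stage FDR being 0.121 without the drug naive line, 0.0536 without the DMSO line and 0.0973 without the 200 nM intermediate. DHPS, the first hypusine enzyme, did not pass (0.15, FDR = 0.441 and 0.32, FDR = 0.169, edgeR).

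Of 6 genes for eIF2 kinases and phosphatase subunits, 1 rose and 3 fell early at 0.05, and 0 rose and 3 fell late. Of 12 regulators of cap binding, 1 rose and 2 fell early, and 0 rose and 2 fell late. Over all genes, 22.6% rose and 24% fell early, and 16.2% and 17.6% late. PPP1R15B did not pass (0.13, FDR = 0.364 and 0.03, FDR = 0.866, edgeR). LARP1, of the 12, rose early (0.24, edgeR FDR = 0.0413), a call lost without either control or any early stage intermediate. PPP1R15A, the stress-induced subunit of the phosphatase of eIF2, was 225 and 197 CPM in the drug naive and DMSO lines, 128, 121 and 121 CPM in the 10, 15 and 25 nM DasR intermediates, and 106 and 81.99 CPM in the 50 and 200 nM DasR intermediates. All intermediates were below both controls, and it fell at 0.005 in both stages (log2 fold change -0.79, SE 0.13, edgeR FDR = 0.00338, and log2 fold change -1.19, SE 0.15, edgeR FDR = 0.00208). EIF2AK3, the eIF2 kinase of the endoplasmic reticulum, was 32.99 and 28.7 CPM in the control lines, 17.2, 18.5 and 18.3 CPM in the early stage intermediates, and 18.9 and 15.4 CPM in the late stage intermediates, and fell (-0.80, FDR = 0.00376 and -0.87, FDR = 0.00663, edgeR). The other eIF2 kinases were EIF2AK1, with 0.47, FDR = 0.0492 and 0.39, FDR = 0.129, EIF2AK2, with 0.26, FDR = 0.0853 and 0.25, FDR = 0.131, and EIF2AK4, with -0.35, FDR = 0.0460 and -0.47, FDR = 0.0313 (edgeR). EIF2AK1 had an early stage FDR of 0.110 without the drug naive line, 0.213 without the DMSO line, 0.0992 without the 10 nM intermediate and 0.0679 without the 25 nM intermediate. For EIF2AK4 the early stage FDR was 0.102 without the drug naive line, 0.187 without the DMSO line, 0.113 without the 10 nM intermediate and 0.121 without the 25 nM intermediate, and the late stage FDR 0.0834 without the drug naive line, 0.118 without the DMSO line, 0.0613 without the 25 nM intermediate and 0.117 without the 50 nM intermediate.

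MKNK2, which codes for a kinase that phosphorylates eIF4E, was 268 and 272 CPM in the drug naive and DMSO lines, 118, 107 and 133 CPM in the 10, 15 and 25 nM DasR intermediates, and 179 and 209 CPM in the 50 and 200 nM DasR intermediates. The 3 groups did not overlap, with the late stage between the others. It fell in the early stage (log2 fold change -1.19, SE 0.11, edgeR FDR = 0.000479) and the late stage (-0.50, FDR = 0.0217, edgeR), and the late stage exceeded the early stage (0.69, FDR = 0.0184, edgeR). The late stage FDR was 0.0939 without the drug naive line, 0.0628 without the DMSO line and 0.0833 without the 50 nM intermediate, and that between the stages 0.0982 without the 200 nM intermediate. MKNK1 did not pass (-0.12, FDR = 0.259 and 0.09, FDR = 0.453, edgeR). EIF4EBP1, the repressor that mTOR releases from eIF4E, was 80.5 and 96.4 CPM in the control lines, 58.6, 63.4 and 54.4 CPM in the early stage intermediates, and 55.5 and 72.4 CPM in the late stage intermediates, and fell at 0.05 (-0.60, FDR = 0.00921 and -0.49, FDR = 0.0386, edgeR). Its early stage FDR was 0.0608 without the DMSO line, and its late stage FDR 0.0720 without the drug naive line, 0.159 without the DMSO line, 0.0578 without the 10 nM intermediate, 0.0621 without the 25 nM intermediate and 0.134 without the 50 nM intermediate. MTOR itself had 0.10, FDR = 0.506 and 0.10, FDR = 0.552 (edgeR). HBS1L, which rescues stalled ribosomes, fell in the early stage (-0.53, FDR = 0.00458, edgeR), and EEF1E1, a part of the multi-synthetase complex named for its likeness to eEF1 subunits, fell in both (-0.79, FDR = 0.000996 and -0.59, FDR = 0.00692, edgeR). HBS1L was higher late than early (0.37, edgeR FDR = 0.0490), a call lost whichever library was left out. Of 9 tested accessory factor genes, HBS1L included, 3 rose and 2 fell early at 0.05 (22.6% and 24% of all genes). In the late stage 3 rose and 0 fell (16.2% and 17.6%). DHX29 (0.44 and 0.55) and ETF1 (0.27 and 0.42) rose in both stages. DDX3X rose early (0.32), ABCE1 late (0.52), and MCTS1 fell early (-0.34). Each of these accessory calls except the fall of HBS1L failed 0.05 on leaving out at least 1 library. PABPC1, the poly(A)-binding protein that contacts eIF4G, was 2675 and 2731 CPM in the control lines, 2688, 2303 and 2507 CPM in the early stage intermediates, and 2539 and 2384 CPM in the late stage intermediates, and none of the 5 tested genes of poly(A) binding passed 0.05 in either stage.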

How the data were processed

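RNA of 7 K562 lines was sequenced with 1 directional, paired-end library each. STAR was used by the authors to align reads to hg19, and they counted reads per gene (the submitters' processing notes name featureCounts, FastQC and edgeR) and deposited counts for 25702 genes without normalization. Versions of the aligner and counter, the annotation used in counting and the strand setting are not given in the sources used here. The labels give polyA RNA as the molecule and the protocol a depletion of ribosomal RNA. The authors also deposited tables of their comparisons, from which the other values used were symbols and gene lengths in bases. The fold changes, p-values and FDR in those tables were not used. The number of deposited sample columns left unused was 0, and 167 table entries without a symbol could not match the rule.

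Lines were grouped as control, early and late stage as the study groups them. A gene was tested if 2 or more libraries reached 10 CPM, the limit that returns the 10452 genes of the deposited tables. The main test was edgeR's quasi-likelihood test (edgeR 4.0.16, R 4.3.3) on the deposited counts with TMM scaling, 1 coefficient per group and all 7 libraries, with Benjamini-Hochberg adjustment over all genes. TMM factors lay between 0.972 and 1.01, and the common dispersion was 0.0260. SE is the log2 fold change divided by the square root of its F. CPM are counts over the library total, and CPM per kilobase divide them by the deposited length. Log2 CPM in the heat map used a prior count of 2. DESeq2 1.42.0 and limma 3.58.1 (voom) were alternatives, beside other scalings, filters, groupings and leaving out each library. On simulated counts for the 10452 genes of the early stage comparison, edgeR at 0.005 recovered 52 of 100 genes changed by 1 on the log2 scale and 92 of 100 changed by 2, with 2 unchanged genes called, and at 0.05 it recovered 72 and 97, with 8 unchanged genes called. Those counts were drawn independently with the fitted spread. Far fewer genes were changed in them than the 1881 called in the data at 0.005. They thus do not measure how the test performs on these lines. P-values measure the spread between lines of a group. They treat these lines as independent, although the DasR intermediates are successive samples of the same escalation.

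Every factor gene of the rule could be named. CPM in each line were given for factor genes past 0.005, for the core of the machinery and, added after the values were seen, for further genes past 0.05. Counts before normalization were given for EIF1 and EIF4E3. The factor genes and the lists of other genes were chosen with earlier results of these data known, so no list was tested as a set. Positions are from GENCODE v44 on GRCh37, which is hg19. Shared 75-base stretches were counted on its transcripts. Promoters are from RefSeq on GRCh38.p14 and were not placed on GRCh37. Products of other assays were not analysed here.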

Additional observations from a re-analysis of the deposited data

Results flagged for a closer look

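4 factor genes differed between the late and early stage by edgeR's quasi-likelihood test at an FDR of 0.05, with Benjamini-Hochberg adjustment. The share of factor genes higher in the late stage was 3.51%, against 6.6% of all genes, and the share lower 3.51%, against 6.1%. EEF1A2 was lower in the late stage, with a log2 difference of -1.26 (FDR = 0.0270), with both late stage intermediates below the 3 early stage ones. EIF6 was also lower, with -0.598 (FDR = 0.0252), and its early stage lines were all above and its late stage lines all below both controls. EIF1B was higher in the late stage by 0.433 (FDR = 0.0226), and EIF4E by 0.487 (FDR = 0.0390), in both late stage lines against all 3 early stage lines. None passed 0.005, and without the 200 nM intermediate the 4 FDRs lay between 0.102 for EIF1B and 0.209 for EIF4E. The study drew the stages from these libraries, and the effect of that on the 4 differences was not tested.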

How the results depend on the processing

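No paired analysis was possible because the labels give no replicate numbers and each line has 1 library. Counts of factor genes called at 0.005 depended on the settings. In the early stage, 7 higher and 5 lower became 15 and 11 with DESeq2, 2 and 1 with all 5 DasR intermediates as 1 group, and 18 and 11 at an FDR of 0.05, and the 7 became 4 with a filter of 1 CPM. In the late stage, 4 higher and 2 lower became 15 and 6 with DESeq2, 0 and 0 with only the 2 groups compared in the fit, 2 and 1 with the 5 intermediates as 1 group, and 16 and 10 at 0.05, and the 4 became 2 with library size alone. Of all genes, DESeq2 called 16.4% higher and 17.6% lower in the early stage and 11.5% and 12.5% in the late stage, against 7.92%, 10.1%, 3.42% and 4.56% by edgeR. Calls over all genes at 0.005 went from 1881 to 845 (early) and from 834 to 845 (late) with the 5 intermediates as 1 group, to 2128 of 14899 with a filter of 1 CPM (early), and to 257 with only the 2 groups compared and 791 with library size alone (late). Between the stages, 0 and 0 became 3 and 2 with DESeq2 and 2 and 2 at 0.05. With no filter on low counts the median log2 fold change moved from 0.06 to 0.106 in the late stage and from 0.03 to 0.0687 between the stages. Leaving out 1 library gave 0 to 6 higher and 1 to 5 lower in the early stage, 0 to 2 higher and 0 to 2 lower in the late stage, and 0 between the stages in both directions. The medians then ranged from 0.0229 to 0.130 (early), from 0.00346 to 0.0563 (late) and from -0.00403 to 0.0802 (between the stages). At 0.05 the same fits gave 12 to 18 higher and 7 to 12 lower in the early stage, and 9 to 17 and 2 to 11 in the late stage, with the lowest counts without the drug naive line. Leaving EIF3CL, EIF5AL1, EEF1A1P9 and EIF3J-AS1 out of the count, an alternative added after seeing the data, changed no count at 0.005. None of the 59 calls of factor genes at 0.05 changed direction under any of 15 alternatives. The cause of these changes was not tested. An arm reduced to 1 line was assumed to vary like the other groups.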
